A study of Mus musculus with 6 samples.

Results

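In mouse hearts measured on expression arrays, 67 probe sets read 62 genes whose signal was lower in untreated apoE-deficient hearts than in both B6 hearts and rosiglitazone-treated apoE-deficient hearts. They were chosen by their values: the higher of the untreated apoE-deficient arrays had to lie at least 1.5-fold below the lower B6 array and at least 1.5-fold below the lower treated array. The choice was made among 14033 probe sets with 1 gene symbol and a mean normalized signal of 100 or more, out of 45037 probe sets that are not controls, so the members are 0.477% of the probe sets that could be chosen, and 62 of the 8952 genes that these read. 5 genes (Car3, Dkk3, Sox4, Adamts5 and Wdr6) were chosen by 2 probe sets and 57 genes by 1. The opposite pattern, with both untreated apoE-deficient arrays at least 1.5-fold above all others, was met by 54 probe sets of 46 genes.

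RNA of heart tissue was hybridised to 6 Affymetrix arrays, 2 for each of 3 groups of mice. The B6 group was untreated and carried no apoE deficiency, the untreated apoE-deficient group lacked apolipoprotein E on the B6 background, and the third group was apoE-deficient and received rosiglitazone at 30 mg/kg per day for 2 months, starting at an age of 6 months. All mice were 8 months old when hearts were taken, and all ate chow with 7% fat and 0.15% cholesterol. The labels call only the treated hearts failing, so the drug and the failing state cannot be told apart. Nor do they say which chambers were taken or whether each array stands for an animal of its own, and every p-value below measures the spread between these arrays alone, which may be technical.

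Apolipoprotein E sits on lipoprotein particles and lets cells take them up, and mice without it carry high blood cholesterol. Rosiglitazone binds PPAR gamma, the nuclear receptor that drives the fat cell programme, and is used against diabetes. The heart is made of atrial and ventricular chambers whose muscle cells use different light chains, ion channels and calcium pump regulators, and around it lie fat, airway and lymphoid tissue. In RNA of whole tissue, fewer cells of a type and less RNA per cell cannot be told apart.

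Values are quantile-normalized signals, given in the order B6 replicates 1 and 2, untreated apoE-deficient replicates 1 and 2, and treated replicates 1 and 2. Because the choice rests on untreated apoE-deficient arrays against B6 and against treated arrays, these differences are described and not tested for members. What the choice did not fix is whether treated hearts lie above or below B6 hearts. This difference was tested with limma over 27022 probe sets on the log2(signal + 11.1) scale, which understates changes of dim genes, with Benjamini-Hochberg adjustment and a threshold of 0.05.

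Apoe itself read 3834 and 3698 in B6, 26.6 and 67.4 in untreated apoE-deficient, and 62.2 and 65.2 in treated hearts. Before normalization, the trimmed mean signals ran from 149 to 175 in B6, from 126 to 130 in untreated apoE-deficient and from 263 to 341 in treated hearts, so brightness moves with the groups in the same order as the members. A control probe set for 18S ribosomal RNA, divided by the hybridization controls of its own array, read 0.225 and 0.308 in B6, 0.0893 and 0.0782 in untreated apoE-deficient, and 0.236 and 0.233 in treated hearts. It is thus low on the same arrays as the members, and its part in the results was not tested. The 3'/5' signal ratio of beta-actin, a measure of RNA integrity, lay between 1.28 and 1.34 on all 6 arrays.

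Across the members, the mean B6 signal was a median of 1.98 times the untreated apoE-deficient mean, with a range from 1.58 to 19.6, and the mean treated signal a median of 2.60 times, from 1.64 to 1562. Replicates of a member differed by a median ratio of 1.07 in B6, 1.096 in untreated apoE-deficient and 1.09 in treated hearts. Both untreated apoE-deficient arrays were the lowest of the 6 in 2274 of the 14033 probe sets, or 16.2%, most of them by less than the fold asked for here. Members just inside the limit were Marcks (1.504), Ppp1cb (1.502) and Btg1 (1.5), and just outside lay Etl4 (1.498), Rbm39 (1.49) and Trp53bp2 (1.49), where the value is the smaller of the ratios of the lower B6 and the lower treated array to the higher untreated apoE-deficient array. There is no gap in the values at the limit.

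Many members were higher in treated than in B6 hearts. On the treated arrays 33 members were higher than in B6 (limma, adjusted p under the threshold), against 7.46% of all tested probe sets. 1 member was lower, against 7.58% of all tested probe sets, and 33 did not pass. By arrays alone, both treated arrays lay above both B6 arrays in 51 members (29.3% of the 14033 probe sets did so), below both in 2 (38.4%), and overlapped with them in 14. The median treated minus B6 difference was 0.35 on the log2 scale, from -0.49 to 7.62, where the median of all tested probe sets was -0.02.

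The signal floor bears on these counts. 9 members reached the mean of 100 only through their treated arrays, since with both treated arrays set to the B6 mean they lie below it: Pck1, Ucp1, Cidec, Reg3g, Ighm, Fez1, Hnrnpdl, Tbc1d13 and Pja1. For these 9 a treated excess over B6 was part of the choice, so their values are a description and no p is given. Of the 58 members that remain, 27 were higher in treated than in B6 hearts and 1 was lower (limma), against 11.0% and 13.3% of the 13784 probe sets past the floor in the same way. Both treated arrays lay above both B6 arrays in 42 of the 58, against 29.3% of the 14033 probe sets. That share was not computed for the 13784. The median treated minus B6 difference of the 58 members was 0.31.

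**Figure D1:**
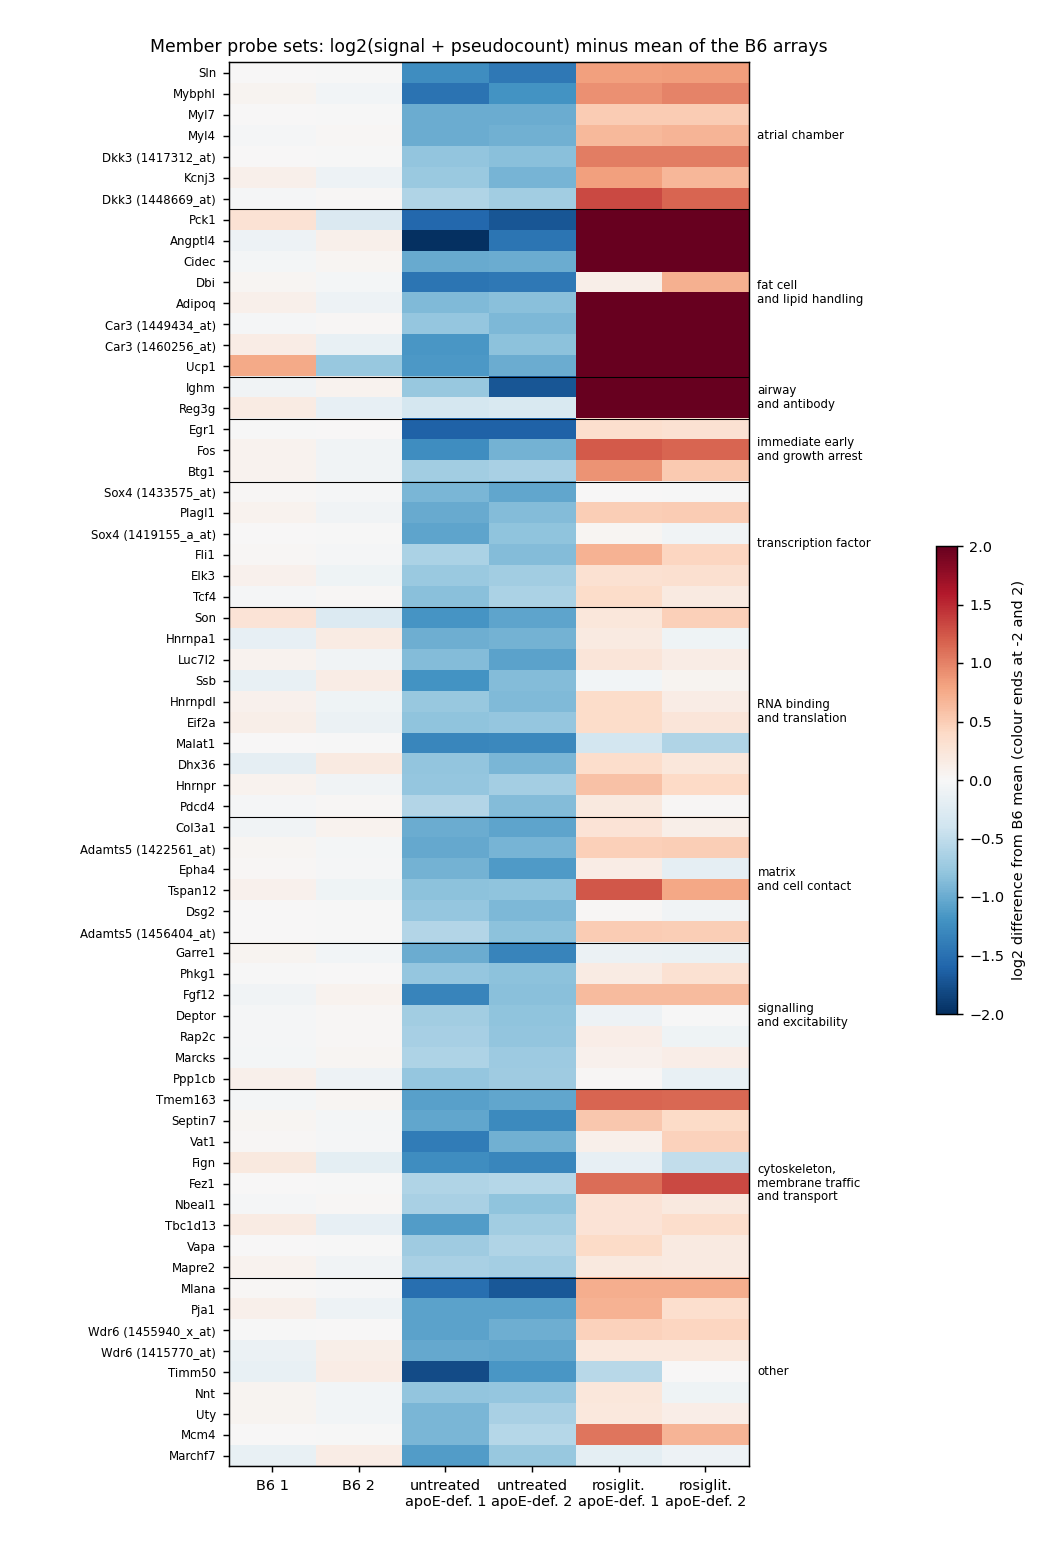
Each row is 1 member probe set, each column 1 array, and the colour is log2(signal + 11.1) minus the mean of the B6 arrays, grouped by the known role of the gene. All 67 rows are blue on the untreated apoE-deficient arrays, by the choice of members, while the treated arrays run from dark red in fat and antibody genes to pale blue in Malat1.

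The roles used here were assigned after the values had been seen, from general knowledge of the genes. The 17 probe sets of atrial, fat and lipid, airway and antibody genes included 16 of the 33 members that were higher in treated than in B6 hearts. Among the other 50 members, 17 were higher, 1 was lower and 32 did not pass, and in 21 of these 50 the treated mean lay within 1.2-fold of the B6 mean. The share of all probe sets within 1.2-fold was not counted. Without the 9 members that reached the floor only through treated arrays, the first set keeps 12 probe sets with 11 of the 27 higher calls. The other 46 then hold 16 higher, 1 lower and 29 that did not pass. Of the 15 members with a treated mean of at least 2 times the B6 mean, 11 belonged to the first set, and without the 9 members above these counts are 9 and 6. Of the 33 higher calls, 17 passed under every setting tried, and 16 were lost under 1 or more, mostly when 1 array was left out or the variances were fitted without an intensity trend. The 17 include Pck1, Ucp1, Cidec, Reg3g, Ighm and Fez1, for which a treated excess was part of the choice, so their passing is no evidence. The 16 are both Adamts5 probe sets, Btg1, Egr1, Fgf12, Fli1, Hnrnpr, Kcnj3, Mcm4, Mlana, Myl7, Plagl1, Septin7, Tspan12, Vapa and the Wdr6 probe set of the x_at type.

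**Figure D2:**
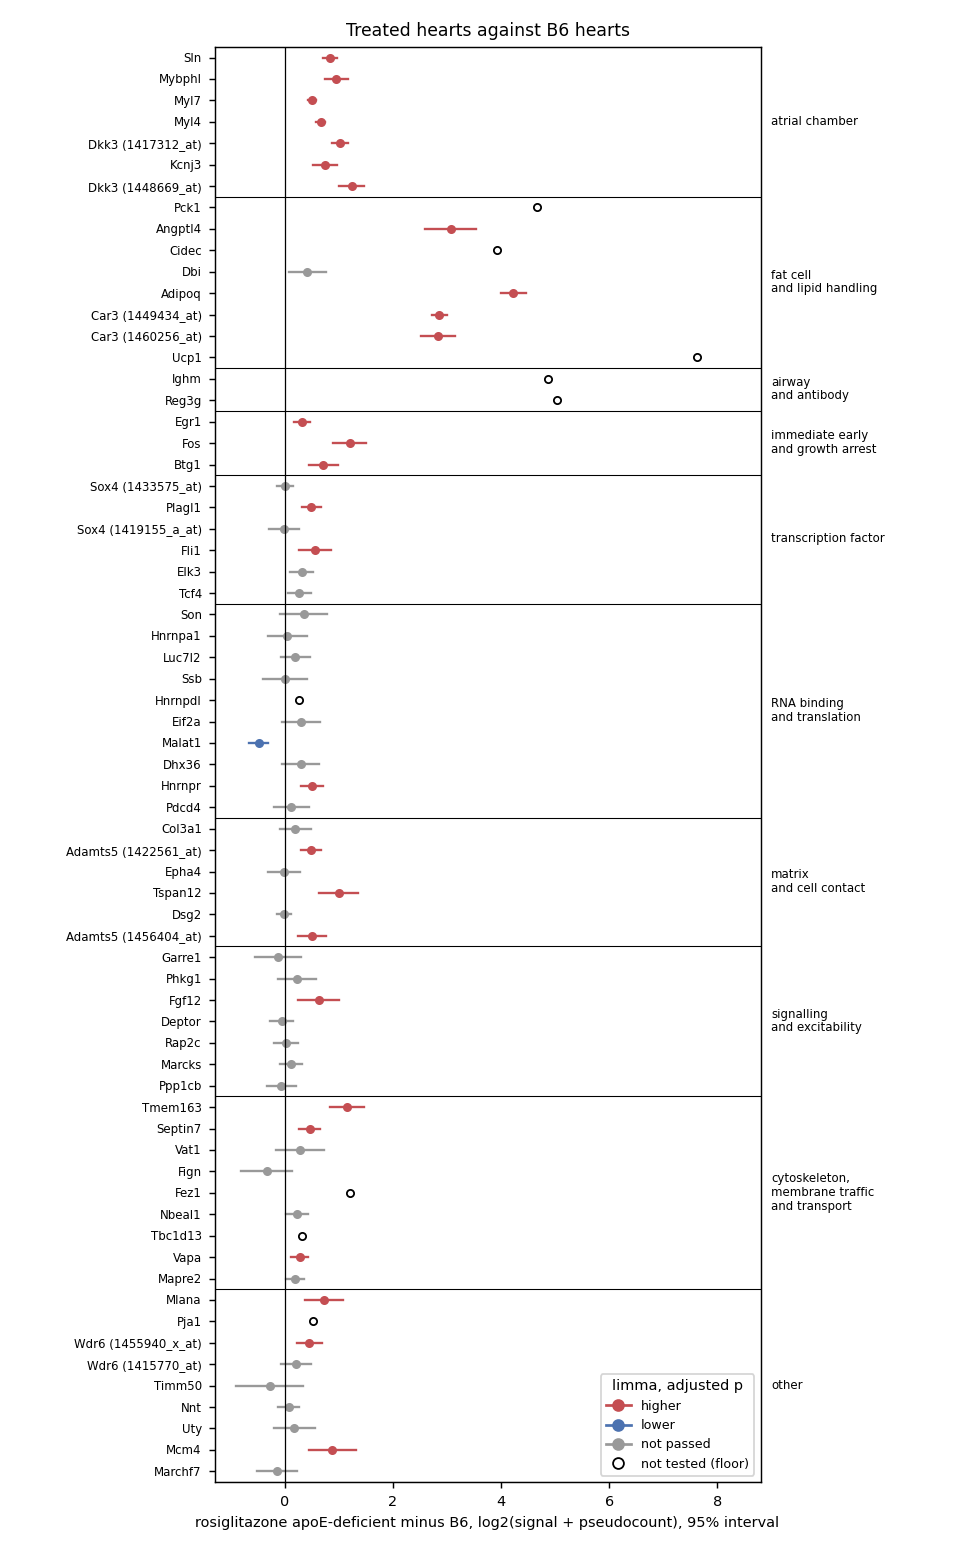
Points give the treated minus B6 difference of log2(signal + 11.1) for each member and bars its 95% interval from limma, coloured by the call, with open points for the 9 members that reached the signal floor only through treated arrays. The 7 atrial probe sets all lie to the right of 0, fat cell genes reach 7.62 (Ucp1), and most RNA-binding and signalling genes have intervals that include 0.

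A group of members belongs to the atria. 6 genes known as markers of atrial muscle (Sln, Myl7, Myl4, Mybphl, Dkk3 and Kcnj3) supplied 7 probe sets, and all 7 were higher in treated than in B6 hearts, by 0.51 to 1.24 on the log2 scale. Of the 13784 probe sets past the floor without the treated excess, 11.0% were higher. With trimmed-mean scaling Myl7 did not pass. On each of these 7 probe sets the untreated apoE-deficient hearts thus held the lowest and the treated hearts the highest signal. B6 hearts lay between them, with no overlap between any groups.

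Sln encodes sarcolipin, the small peptide that inhibits the calcium pump of the sarcoplasmic reticulum in atrial muscle. Its signal was 3772 and 3733 in B6, 1579 and 1392 in untreated apoE-deficient, and 6649 and 6728 in treated hearts. Treated exceeded B6 hearts by 0.83 ± 0.06 (SE, limma, n = 2 arrays a group, adjusted p = 3.04e-05). Myl7 and Myl4 encode the regulatory and the essential myosin light chain of the atria. Myl7 read 7780 and 7715, then 3877 and 3873, then 11080 and 10980, and Myl4 read 5878 and 6131, then 3002 and 3068, then 9379 and 9666. Treated minus B6 was 0.51 ± 0.03 for Myl7 (adjusted p = 1.9e-05) and 0.66 ± 0.04 for Myl4 (adjusted p = 1.14e-05). With trimmed-mean scaling, Myl7 treated minus B6 was 0.041 and did not pass.

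Mybphl, a myosin-binding protein found in atrial muscle and the conduction system, read 897 and 836, then 304 and 372, then 1643 and 1731, with treated minus B6 at 0.95 ± 0.10 (adjusted p = 0.000263). Kcnj3, a subunit of the potassium channel through which acetylcholine slows atrial cells, read 767 and 663, then 422 and 371, then 1272 and 1140, at 0.75 ± 0.10 (adjusted p = 0.00117). A further Kcnj3 probe set kept this order, at 231 and 270, then 213.5 and 207.5, then 543 and 499. Another did not, with untreated apoE-deficient above B6 hearts, at 173 and 161, then 218 and 198, then 213 and 245. Dkk3, a secreted protein of the Dickkopf family that is abundant in atria, was read by 2 probe sets. The brighter gave 615 and 609, then 350 and 339, then 1259 and 1249, and the other 274 and 280, then 180 and 168, then 707 and 633. Both put treated above B6 hearts, by 1.02 ± 0.07 and 1.24 ± 0.10.

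Other atrial genes show how far the pattern reaches. In a list of 13 atrial markers, both untreated apoE-deficient arrays were the lowest of the 6 for 11. The 11 include the 6 member genes, which were chosen for this pattern, and Gja5, which was too dim to be tested. Among the 6 tested genes of the list that are no members, 4 had both untreated apoE-deficient arrays lowest, against 16.2% of the 14033 probe sets. With the members included, the summed signal of the list was 38980 and 39020 in B6, 23730 and 23880 in untreated apoE-deficient, and 52750 and 52920 in treated hearts. A list of 12 ventricular markers summed to 187300 and 187900, then 178400 and 180900, then 172500 and 178400, but treated against B6 depends on the scaling. Of the 12 ventricular genes, 1 was higher and 4 were lower in treated than in B6 hearts with quantile normalization (median difference -0.04), 0 and 12 with trimmed-mean scaling (-0.73), 0 and 11 with medians centred (-0.54), 0 and 11 with spike-in scaling (-0.41), and 3 and 0 with no scaling (0.16). The median of the 12 tested atrial genes, members included, was 0.52 with quantile normalization and 0.23, 0.42, 0.55 and 1.12 in the same order of settings.

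Of the 6 tested atrial genes that are no members, 2 were lower in untreated apoE-deficient than in B6 hearts (4.71% of 13236 genes, each by its brightest probe set, were lower), and 4 were higher in treated than in untreated apoE-deficient hearts (11.5%), with 2 lower (12.3%). Nppa, the atrial natriuretic peptide, read 14370 and 14370, then 9945 and 9971, then 17020 and 16860. Its fall of 0.53 ± 0.03 in untreated apoE-deficient hearts kept its sign under every scaling, while treated minus B6 was 0.24 ± 0.03 with quantile normalization and -0.48 with trimmed-mean scaling, so the direction of Nppa against B6 turns with the scaling. Stard10, a lipid transfer protein, read 1666 and 1812, then 1218 and 1414, then 2026 and 2038. Bmp10, an atrial growth factor, and Tbx5, a transcription factor of the atria, differed from B6 in untreated apoE-deficient hearts by -0.85 ± 0.28 (adjusted p = 0.112) and -0.59 ± 0.20 (adjusted p = 0.119), which did not pass. Without an intensity trend 6 probe sets in all were higher and 4 lower in untreated apoE-deficient than in B6 hearts, against 856 (3.17%) and 1053 (3.90%) with it, and 0 of the atrial list passed, so calls of list genes in that comparison depend on the trend.

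2 potassium channels of the atrial list did not share the pattern. Kcna5, which carries the ultrarapid repolarizing current, read 625 and 595 in B6, 610 and 619 in untreated apoE-deficient, and 107 and 125 in treated hearts. It fell by 2.29 ± 0.10 from B6 to treated hearts (adjusted p = 2.2e-06), with the same sign under every scaling tried. Kcnk3, a background channel, read 2230 and 2233, then 2214 and 2244, then 1931 and 1962, and the sign of treated minus B6 turned with spike-in scaling.

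**Figure D3:**
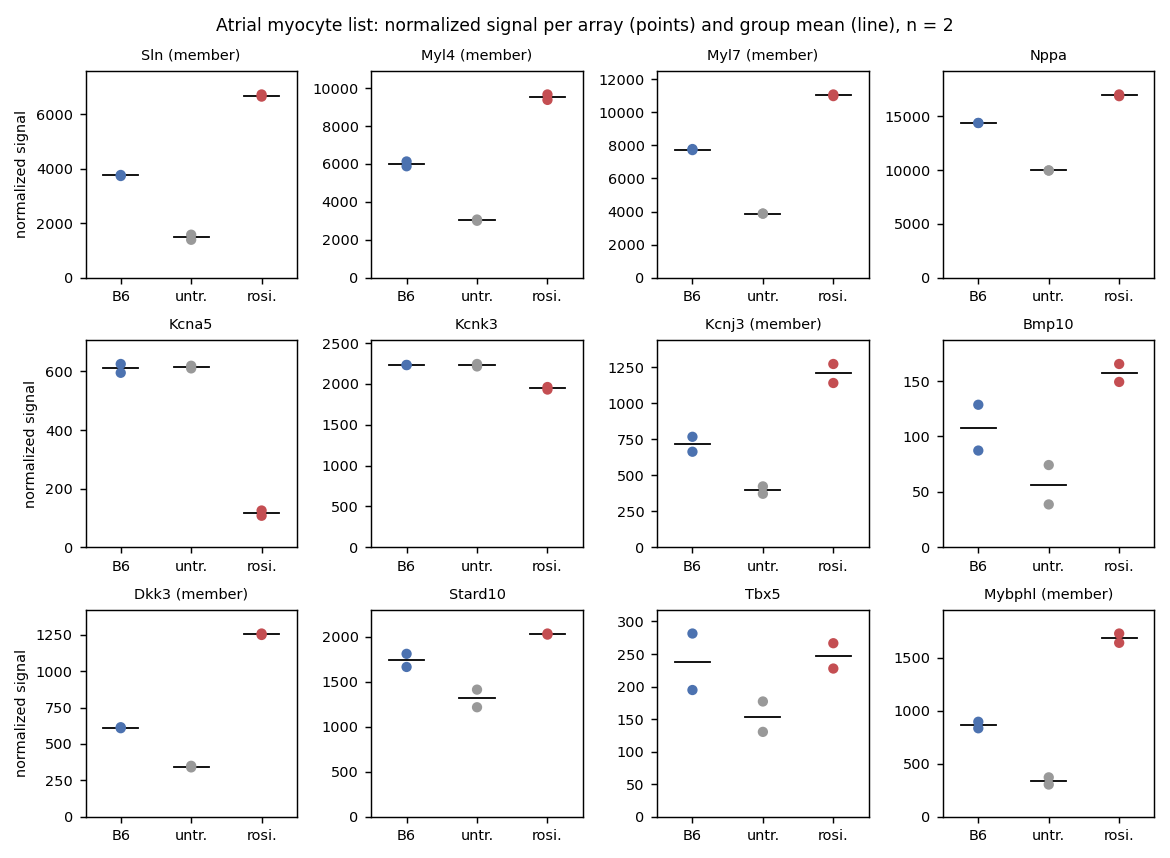
Each panel is 1 of the 12 tested genes of the atrial list, points are arrays, lines are group means and each vertical axis starts at 0. In 10 of the panels, the 6 member genes among them by choice, both grey points of untreated apoE-deficient hearts lie lowest. Kcna5 is near 610 in B6 and untreated apoE-deficient hearts and at 107 and 125 in treated hearts.

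Promoter windows are shown for the atrial genes Myl7, Mybphl and Kcnj3, since their signals moved together, and below for Fos, Pck1 and Adipoq, which stand for the other roles. They run from 250 bases before to 50 bases after the annotated start (RefSeq, GRCm38.p6), printed 5′ to 3′ on the strand of the gene, with searched motifs in capitals. Of the 62 member genes 44 matched an entry, with 54 windows. The windows are chr11:5898733-5899032 on the minus strand for Myl7, chr3:108364661-108364960 on the plus strand for Mybphl and chr2:55435720-55436019 on the plus strand for Kcnj3.
Myl7: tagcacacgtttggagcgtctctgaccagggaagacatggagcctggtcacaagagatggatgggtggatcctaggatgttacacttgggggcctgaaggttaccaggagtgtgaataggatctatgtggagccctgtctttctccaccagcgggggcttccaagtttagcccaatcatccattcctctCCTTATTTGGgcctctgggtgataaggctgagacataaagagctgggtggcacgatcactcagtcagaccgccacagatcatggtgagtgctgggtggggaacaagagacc
Mybphl: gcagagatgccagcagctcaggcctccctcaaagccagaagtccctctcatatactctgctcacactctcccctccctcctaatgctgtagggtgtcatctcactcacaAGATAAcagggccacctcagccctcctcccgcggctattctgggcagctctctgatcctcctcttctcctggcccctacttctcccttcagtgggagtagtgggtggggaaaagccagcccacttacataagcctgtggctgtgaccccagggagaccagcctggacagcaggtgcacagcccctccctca
Kcnj3: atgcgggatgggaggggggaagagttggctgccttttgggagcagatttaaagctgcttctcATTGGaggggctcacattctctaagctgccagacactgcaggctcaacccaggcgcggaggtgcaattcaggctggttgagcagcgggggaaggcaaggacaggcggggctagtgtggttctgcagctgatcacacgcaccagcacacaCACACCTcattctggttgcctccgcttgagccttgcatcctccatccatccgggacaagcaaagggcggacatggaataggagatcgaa
The capitals mark a CArG box in Myl7 (the motif of serum response factor) that begins at -61 from the start, AGATAA, the letters bound by GATA factors, in Mybphl at -141, and in Kcnj3 CCAAT on the opposite strand at -188 and AGGTGTG (the T-box motif) on the opposite strand at -39. The Myl7 window also holds CCAAT at -79. Counting both strands, 3.7% of the 54 member windows held a CArG box against 1.6% of all 32851 windows, 5.6% held AGATAA against 11.2%, and 3.7% held AGGTGTG against 5.8%. A match is a run of letters and not evidence of binding.

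Fat cell and lipid genes were far above B6 in treated hearts. 7 genes gave 8 probe sets. Of the 5 that did not need the treated arrays to reach the signal floor, 4 were higher than in B6 (both Car3 probe sets, Angptl4 and Adipoq), by 2.84 to 4.23 on the log2 scale, and Dbi did not pass. Among the 13784 probe sets past the floor in the same way, 11.0% were higher. Pck1, Ucp1 and Cidec needed the treated arrays and are described without a test. In each of the 7 other than Dbi the treated mean exceeded the B6 mean by a larger fold than the B6 mean exceeded the untreated apoE-deficient mean.

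Adipoq encodes adiponectin, the hormone that fat cells secrete. Its signal was 177 and 154 in B6, 84.9 and 87.4 in untreated apoE-deficient, and 3194 and 3394 in treated hearts, so treated lay 4.23 ± 0.10 above B6 (adjusted p = 5.83e-08). Car3, a carbonic anhydrase abundant in fat cells, read 849 and 882, then 502 and 460, then 6340 and 6364 on its brighter probe set, and 263 and 210, then 99.1 and 128, then 1671 and 1820 on the other. Both Car3 probe sets separated the 3 groups and gave nearly equal treated minus B6 differences, 2.86 ± 0.06 and 2.84 ± 0.14. Cidec, a protein of the lipid droplet surface, read 40.1 and 42.8, then 15.1 and 15.2, then 805 and 779.

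Angptl4, a secreted inhibitor of lipoprotein lipase and a classical PPAR target, read 237 and 273, then 48.2 and 85.1, then 2470 and 1986. Treated minus B6 was 3.07 ± 0.21 (adjusted p = 2.57e-05). Pck1 encodes the cytosolic phosphoenolpyruvate carboxykinase, which in fat cells feeds glycerol synthesis. It read 36.8 and 21.0 in B6, 2.07 and 0.881 in untreated apoE-deficient, and 992 and 986 in treated hearts. Its untreated apoE-deficient values lie under the pseudocount of 11.1, so its 19.6-fold B6 excess rests on signals near the bottom of the scale, and another Pck1 probe set gave 43.2 and 26.2, then 34.1 and 30.7, then 373 and 376, with B6 and untreated apoE-deficient arrays overlapping.

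Ucp1, the uncoupling protein of brown fat, read 42.4 and 7.52 in B6, 3.15 and 4.81 in untreated apoE-deficient, and 6196 and 6243 in treated hearts. Its treated minus B6 difference of 7.62 follows in part from the floor, which it reached through the treated arrays, whereas 1 B6 array and both untreated apoE-deficient arrays lay under the pseudocount, and Ucp1 was a member in 1 of 4 other scalings. Dbi, the acyl-CoA binding protein, read 2913 and 2770, then 1030 and 1050, then 3076 and 4678. Its treated arrays differed by a ratio of 1.52, the widest of any member in that group, and treated minus B6 was 0.42 ± 0.15 (adjusted p = 0.106). The other 3 Dbi probe sets placed untreated apoE-deficient only slightly under B6 hearts, for example 2344 and 2302 against 2471 and 2390.

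**Figure D4:**
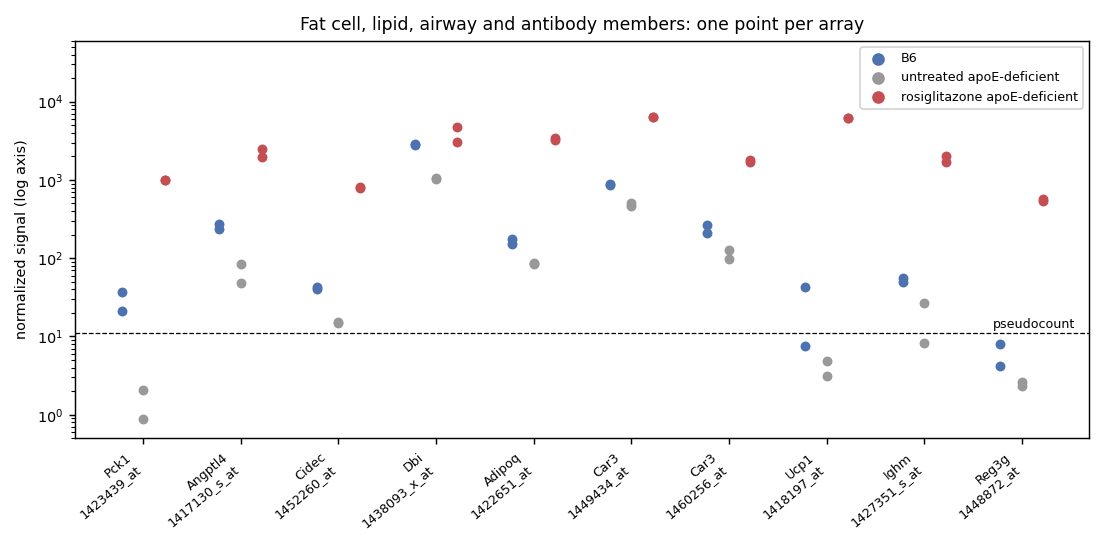
Points are normalized signals of single arrays on a log axis for the 10 probe sets of fat, lipid, airway and antibody members, with the pseudocount of 11.1 as a dashed line. Treated arrays lie above all others for each probe set, and the untreated apoE-deficient points of Pck1, Ucp1 and Reg3g lie under the dashed line.

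Promoter windows of Adipoq (chr16:23146286-23146585, plus strand) and Pck1 (chr2:173152823-173153122, plus strand) are shown as the fat cell examples.
Adipoq: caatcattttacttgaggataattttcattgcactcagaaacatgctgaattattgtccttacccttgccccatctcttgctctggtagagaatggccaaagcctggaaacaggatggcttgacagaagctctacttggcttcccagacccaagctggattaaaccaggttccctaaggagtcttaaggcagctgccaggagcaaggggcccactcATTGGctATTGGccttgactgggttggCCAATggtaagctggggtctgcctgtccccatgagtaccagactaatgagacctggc
Pck1: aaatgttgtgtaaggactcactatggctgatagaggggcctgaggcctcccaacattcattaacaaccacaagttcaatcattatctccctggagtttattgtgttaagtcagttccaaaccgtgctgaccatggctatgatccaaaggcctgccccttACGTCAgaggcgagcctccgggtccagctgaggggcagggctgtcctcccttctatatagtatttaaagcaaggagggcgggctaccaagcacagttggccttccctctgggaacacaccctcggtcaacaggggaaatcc
In Adipoq the capitals mark CCAAT 3 times, at -34 and -27 on the opposite strand and at -7. CCAAT was held by 42.6% of member windows and 37.4% of all. In Pck1 they mark TGACGT (the cyclic AMP response motif) on the opposite strand at -91, and the window also holds AGATAA on the opposite strand at -169. TGACGT was in 20.4% of member windows (11 genes) and in 7.5% of all. AGGTCA, the core letters bound by nuclear receptors such as PPAR, was in 7.4% of member windows and 16.3% of all.

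Fat cell genes outside the members did not have to meet the rule. Among 11 tested white adipocyte markers that are no members, 7 were higher in treated than in B6 hearts (8.83% of all 13236 genes) and 2 were lower (9.90%), while 1, the lipase Lipe, was lower in untreated apoE-deficient than in B6 hearts (4.71%). Fabp4, the fatty acid binding protein of fat cells, read 8661 and 7931, then 7746 and 7578, then 16860 and 15890, and Cebpa, a transcription factor of fat cell formation, 201 and 203, then 198 and 178, then 642 and 708. Plin4 and Lpl were the 2 that were lower in treated hearts. Among 9 tested brown adipocyte markers other than Ucp1, 5 were higher in treated than in B6 hearts (Cidea, Elovl3, Otop1, Dio2 and Slc27a2, against 8.83% of all genes) and 2 were lower (Ppargc1a and Prdm16, against 9.90%). Otop1 (13.3 and 2.63) and Slc27a2 (7.22 and 8.32) were dim in B6 hearts, so their high treated signals helped them to be tested. Without the filter on dim probe sets, 6 of 11 list genes, Ucp1 included, were higher and 1 lower. By limma 0 of the 9 differed between untreated apoE-deficient and B6 hearts, with 3 higher and 1 lower at an unadjusted p under 0.05. Cidea, a brown fat lipid droplet protein, read 977 and 979, then 1037 and 999, then 4240 and 4326, without the low values of untreated apoE-deficient hearts that define the members.

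Of 17 tested genes of lipogenesis and triglyceride synthesis other than Pck1, 10 were higher and 4 lower (Acacb, Me1, Dgat2 and Gpam) in treated than in B6 hearts. Of all 13236 genes, 8.83% were higher and 9.90% lower in this comparison. Scd1, the stearoyl-CoA desaturase, came closest to the members with 630 and 707, then 439 and 426, then 3255 and 3384, and Fasn, the fatty acid synthase, read 493 and 517, then 399 and 403, then 1376 and 1333. The PPAR targets of lipid handling other than Angptl4 were split, with 6 of 15 higher and 7 lower in treated than in B6 hearts. Pdk4, the kinase that restrains pyruvate dehydrogenase, read 5933 and 5997, then 2871 and 2884, then 1878 and 1979, so its untreated apoE-deficient level lay between the others and not below them.

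Reg3g and Ighm were far above all other groups in treated hearts. Reg3g, an antimicrobial lectin of airway and gut lining, read 7.96 and 4.17 in B6, 2.33 and 2.65 in untreated apoE-deficient, and 570 and 532 in treated hearts, a treated minus B6 difference of 5.04. It reached the signal floor only through the treated arrays. Its B6 and untreated apoE-deficient signals all lie under the pseudocount, so its place among the members rests on values at the bottom of the scale, and it was a member in 1 of 4 other scalings. Ighm, the heavy chain of immunoglobulin M, read 49.0 and 55.8, then 26.4 and 8.32, then 1675 and 2022, a difference of 4.87, and also reached the floor only through the treated arrays. The other 3 Ighm probe sets past the floor did not place both untreated apoE-deficient arrays lowest.

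Airway genes were high in treated hearts. Many read near or under the pseudocount in B6 hearts, so a dip in untreated apoE-deficient hearts could hardly show. Of 11 tested airway and lung markers besides Reg3g, 7 were higher in treated than in B6 hearts by limma (8.83% of all genes) and 0 were lower (9.90%, and also 0 at an unadjusted p under 0.05), and 0 had both untreated apoE-deficient arrays lowest. Dim probe sets were left out by their mean over all 6 arrays, so high treated signals helped many of these genes to be tested. Without that filter, 8 of the 15 list genes, Reg3g included, were higher and 0 lower. Of all 45037 probe sets, 1700 were then higher and 1731 lower. The whole list of 15 summed to 223 and 278 in B6, 284 and 337 in untreated apoE-deficient, and 16820 and 17710 in treated hearts. Bpifa1, a secreted airway protein, read 6.57 and 9.02, then 12.5 and 2.37, then 7109 and 7212, while the alveolar marker Sftpc read 38.3 and 22.3, then 45.7 and 28.6, then 63.1 and 61.7. The part of these airway transcripts in the levels of other members was not tested. Among 6 tested lymphocyte markers besides Ighm, 1 was higher and 1 lower in treated than in B6 hearts (8.83% and 9.90% of all genes). Jchain, the joining chain of antibodies, was the higher with 23.4 and 33.3, then 14.4 and 20.1, then 234 and 224, and the T cell receptor partner Cd8a the lower with 108 and 124, then 121 and 167, then 56.6 and 58.9 (-0.88 ± 0.20, adjusted p = 0.0187), while the T cell marker Cd3e, too dim to be tested, read between 9.07 and 34.3 on all 6 arrays.

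The early response genes Egr1 and Fos were members, as was Btg1, an inhibitor of cell growth, and all 3 were higher in treated than in B6 hearts. This was so for 11.0% of the 13784 probe sets past the floor without the treated excess. Egr1, a zinc finger factor induced within minutes of a stimulus, read 1005 and 1012 in B6, 322 and 320 in untreated apoE-deficient, and 1273 and 1243 in treated hearts. Its replicates nearly coincide, and the untreated apoE-deficient signal was the lowest by 3.12-fold at the closest arrays. Treated minus B6 was 0.32 ± 0.06 (adjusted p = 0.0106), a call that was lost without either B6 array, without treated replicate 1 and without an intensity trend. Fos, a subunit of the AP-1 factor, read 233 and 210, then 86.6 and 110, then 532 and 510, at 1.199 ± 0.14 (adjusted p = 0.000509). Btg1 read 687 and 618, then 400 and 412, then 1226 and 942, at 0.71 ± 0.12 (adjusted p = 0.00366).

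The Fos promoter window, at chr12:85473640-85473939 on the plus strand, is shown as that of the member with the best-known promoter.
Fos: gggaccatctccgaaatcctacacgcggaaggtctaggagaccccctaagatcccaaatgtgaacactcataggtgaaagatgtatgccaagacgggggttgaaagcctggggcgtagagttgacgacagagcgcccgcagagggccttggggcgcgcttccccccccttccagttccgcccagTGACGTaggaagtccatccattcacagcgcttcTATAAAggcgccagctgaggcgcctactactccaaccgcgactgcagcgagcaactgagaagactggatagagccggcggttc
The capitals mark TGACGT at -66 and TATAAA (the TATA box) at -33. TATAAA was in 11.1% of member windows and 13.6% of all.

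Other immediate early genes were mixed. Among 18 tested genes of that list that are no members, both untreated apoE-deficient arrays were lowest for 5 (16.2% of the 14033 probe sets), and 1 of the 18 was lower in untreated apoE-deficient than in B6 hearts (4.71% of genes). This was Dusp1, a phosphatase that ends MAP kinase signals, which read 3009 and 3020, then 2050 and 1957, then 3099 and 3230. 3 genes went the other way and were higher in untreated apoE-deficient than in B6 hearts (3.86%). Nr4a3, an orphan nuclear receptor, read 28.4 and 58.3, then 252 and 273, then 74.3 and 63.8, Atf3, a stress-induced factor, 116 and 114, then 351 and 258, then 91.2 and 119, and Ier3 888 and 843, then 1469 and 1432, then 1015 and 999. Within the families, Egr2 had both untreated apoE-deficient arrays lowest, at 7.05 and 16.7, but its difference from B6 of -0.84 ± 0.45 did not pass (adjusted p = 0.307), and Egr3, Egr4, Fosb, Fosl1 and Fosl2 did not show the pattern.

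Transcription factors other than Egr1 and Fos gave 6 probe sets, and treated hearts stayed near B6 in several. Sox4, a factor of progenitor cells, read 1541 and 1478, then 798 and 732, then 1525 and 1505 on its brighter probe set, and 321 and 317, then 147 and 178, then 329 and 303 on the other. Treated and B6 arrays overlapped on both, with differences of 0.01 (95% interval from -0.14 to 0.15) and -0.01 (from -0.29 to 0.26). The further Sox4 probe sets past the floor put the treated mean below B6, by 0.41 and 0.42. The first read 238 and 196, then 92.3 and 105, then 152 and 169, without overlap of treated and B6 arrays, while on the second they overlapped. Plagl1, an imprinted zinc finger factor, read 837 and 757, then 390 and 432, then 1119 and 1131, at 0.49 ± 0.08 (adjusted p = 0.00352). Fli1, a factor of endothelial and blood cells, was also higher than in B6, at 0.56 ± 0.13 (adjusted p = 0.018). Elk3, an ETS factor, and Tcf4, a basic helix-loop-helix factor, had both treated arrays above B6 but did not pass, at 0.31 ± 0.10 (adjusted p = 0.0601) and 0.27 ± 0.09 (adjusted p = 0.0838).

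RNA-binding and translation genes gave 10 probe sets, of which 8 did not pass between treated and B6 hearts. Hnrnpr, a nuclear RNA-binding protein, was higher at 0.50 ± 0.09 (adjusted p = 0.00595). Malat1, a long RNA of the nuclear speckles, was the only member that was lower in treated than in B6 hearts. It read 2566 and 2522 in B6, 1018 and 1037 in untreated apoE-deficient, and 1976 and 1666 in treated hearts, with treated minus B6 at -0.49 ± 0.08 (adjusted p = 0.0027). The value moved to 0.33 with no scaling, and the call was lost with spike-in scaling and without an intensity trend. Son, a scaffold of the same speckles, read 248 and 166, then 83.2 and 91.8, then 239 and 288 on its member probe set. On each further Son probe set past the floor, the untreated apoE-deficient arrays were not both the lowest. The brightest read 1676 and 1664, then 1525 and 1449, then 1432 and 1370, with treated hearts lowest.

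Luc7l2, a splicing factor of the U1 particle, read 331 and 298, then 168 and 143, then 373 and 349. Ssb, the La protein that binds new RNA polymerase III transcripts, read 148 and 183, then 65.5 and 85.7, then 159 and 172, with treated and B6 arrays overlapping. Hnrnpa1 and Hnrnpdl, splicing regulators of the hnRNP family, Eif2a and Dhx36, which act in translation and in unwinding of RNA, and Pdcd4, an inhibitor of translation, had B6 means at 1.70 to 2.06 times the untreated apoE-deficient mean and treated means at 1.85 to 2.33 times. None of these 5 passed between treated and B6 hearts, and Hnrnpa1 was the 1 whose arrays overlapped there. On each further Ssb, Eif2a and Dhx36 probe set past the floor, the untreated apoE-deficient arrays were not both the lowest.

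In the list of RNA splicing and nuclear RNA-binding genes, 5 of 16 tested genes that are no members were lower in untreated apoE-deficient than in B6 hearts (Srsf1, Srsf5, Clk1, Hnrnpd and Hnrnph1) by limma, against 4.71% of all genes. 0 of the 16 were higher, against 3.86% of all genes, with 1 higher at an unadjusted p under 0.05. In treated against B6 hearts 2 were higher (Tra2a and Ddx5, against 8.83% of all genes) and 4 were lower (Srsf6, Clk1, Hnrnph1 and Rsrp1, against 9.90%). Srsf5, a serine and arginine rich splicing factor, read 1867 and 1779, then 1245 and 1238, then 1591 and 1687, and Clk1, a kinase of such factors, 831 and 848, then 594 and 523, then 565 and 516. Clk1 was thus low in treated hearts too, with treated minus B6 at -0.63 ± 0.09.

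Matrix and cell contact genes gave 6 probe sets. Col3a1, a fibrillar collagen of the heart's connective tissue, read 228 and 255, then 116 and 111, then 293 and 263 on the member probe set, and treated minus B6 was 0.20 ± 0.13, which did not pass. A brighter Col3a1 probe set read 3990 and 4000, then 3036 and 2990, then 4448 and 4435, the same order with a smaller drop. Adamts5, a protease that cleaves proteoglycans, was read by 2 members, 543 and 519, then 255 and 272, then 747 and 751, and 297 and 291, then 191 and 161, then 424 and 417. Both placed treated above B6 hearts, by 0.49 ± 0.08 and 0.50 ± 0.11. Tspan12, a tetraspanin that aids Frizzled 4 signalling in vessels, read 248 and 217, then 126 and 128, then 560 and 402, at 1.001 ± 0.16 (adjusted p = 0.00302).

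Dsg2, a desmosomal cadherin that joins heart muscle cells, read 2614 and 2573, then 1519 and 1393, then 2644 and 2475, and Epha4, an ephrin receptor, 415 and 406, then 207 and 181, then 458 and 362. Treated and B6 arrays overlapped for both on these member probe sets. On every further Dsg2 and Epha4 probe set past the floor, both treated arrays lay below both B6 arrays. The brightest of Dsg2 read 1108 and 1078, then 780 and 803, then 880 and 852, and that of Epha4 266 and 196, then 207 and 132, then 136 and 152. On most of them the untreated apoE-deficient arrays were not both the lowest. In the extracellular matrix list, 6 of 27 tested genes that are no members were lower in untreated apoE-deficient than in B6 hearts (4.71% of all genes) and 3 were higher (Col8a1, Thbs1 and Cilp, 3.86%). In treated against untreated apoE-deficient hearts 17 were higher (11.5%) and 2 lower (Thbs1 and Col15a1, 12.3%). Col5a1 (577 and 614, then 386 and 432, then 693 and 698) and Loxl1, a lysyl oxidase (1425 and 1421, then 1011 and 1004, then 1555 and 1492), shared the members' order at a smaller size. Postn, a matricellular protein of activated fibroblasts, read 673 and 702, then 843 and 780, then 1963 and 1808 and did not.

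Signalling genes among the members had treated levels close to B6 on their member probe sets. In 6 of these 7 probe sets the treated mean lay within 1.2-fold of B6, and Fgf12, an intracellular modulator of sodium channels, was the exception at 207 and 232, then 81.5 and 118, then 344 and 344 (0.63 ± 0.17, adjusted p = 0.035). How many of all probe sets lie within 1.2-fold was not counted, so the closeness is a description and may be usual. Deptor, an inhibitor of mTOR, read 423 and 435, then 260 and 240, then 399 and 426, with a difference of -0.06 (95% interval from -0.27 to 0.16). Its further probe sets past the floor put both treated arrays above B6, with differences of 0.37 and 0.94, and there B6 and untreated apoE-deficient arrays overlapped. Phkg1, a catalytic subunit of phosphorylase kinase in muscle, read 141 and 143, then 78.5 and 75.3, then 161 and 177. Garre1, a Rac1 effector, was the other member whose treated arrays both lay below B6, at 145 and 135, then 64.9 and 49.1, then 128 and 127, but the difference of -0.13 ± 0.19 did not pass. Marcks, Ppp1cb and Rap2c, a kinase substrate at the membrane, a phosphatase subunit and a small GTPase, lay at 1.61 to 1.72 times the untreated apoE-deficient mean in B6 hearts. The brightest Ppp1cb probe set read 3284 and 3000, then 2710 and 2910, then 4219 and 3715, so there both treated arrays lay above B6.

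Among 9 cytoskeleton, traffic and transport genes, Tmem163, Septin7 and Vapa were higher in treated than in B6 hearts by limma. Of the 13784 probe sets past the floor without the treated excess, 11.0% were higher. Fez1 needed its treated arrays to reach the floor and is described without a test. Tmem163, a zinc transporter, read 137 and 147, then 60.7 and 63.7, then 331 and 330, at 1.16 ± 0.14 (adjusted p = 0.000714), and Fez1, a kinesin adaptor, 102 and 102, then 63.1 and 64.8, then 233 and 271, a difference of 1.21 that the floor helped to fix. Their treated means were 2.33 and 2.47 times those of B6. Septin7, a filament-forming GTPase, read 1359 and 1291, then 636 and 542, then 1927 and 1728, at 0.46 ± 0.09 (adjusted p = 0.00755), and Vapa, an anchor of the endoplasmic reticulum, 2068 and 2045, then 1247 and 1349, then 2672 and 2328, at 0.28 ± 0.07 (adjusted p = 0.0296). Vat1, Nbeal1, Tbc1d13 and Mapre2 had both treated arrays above B6 without passing, and Fign, a microtubule-severing enzyme, overlapped at 174 and 130, then 56.9 and 54.6, then 133 and 104.

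The remaining 9 probe sets read genes of unlike function. Mlana, a melanosome protein of pigment cells, had the largest value of the ratio that defines the members (the lower B6 or treated array over the higher untreated apoE-deficient array) outside the fat and lipid genes, 3.23, with signals of 156 and 151, then 46.7 and 39.6, then 261 and 261, and treated lay 0.73 ± 0.16 above B6 (adjusted p = 0.0142), a call that was lost without any 1 of the B6 or treated arrays. Of 8 other melanocyte genes, 0 had both untreated apoE-deficient arrays lowest, and the pigment enzyme Dct read 68.9 and 41.2, then 61.7 and 48.6, then 137 and 130. Wdr6, a WD repeat protein, was read by 2 probe sets, 321 and 327, then 148 and 159, then 452 and 442, and 252 and 301, then 130 and 129, then 319 and 322. Mcm4, a subunit of the replicative helicase, read 125 and 122, then 60.01 and 79.3, then 271 and 204. Another Mcm4 probe set read 146 and 125, then 152 and 127, then 182 and 202, so there B6 and untreated apoE-deficient arrays overlapped.

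Nnt, the mitochondrial transhydrogenase that makes NADPH, read 5008 and 4684, then 2813 and 2825, then 5690 and 4540. A brighter probe set of Nnt read 10030 and 9808, then 7906 and 8127, then 8027 and 8976, so there the treated and untreated apoE-deficient arrays overlapped. Uty, a demethylase encoded on the Y chromosome, read 150 and 139, then 71.6 and 88.2, then 170 and 160. Pja1 and Marchf7, both ubiquitin ligases, and Timm50, a subunit of the mitochondrial import channel, did not pass between treated and B6 hearts. A brighter Timm50 probe set read 774 and 699, then 917 and 919, then 743 and 763, with the untreated apoE-deficient arrays highest.

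Other probe sets of the same genes give readings that the choice did not use. Of the 62 member genes, 39 had 83 further probe sets past the signal floor. In 37 of the 83, or 44.6%, both untreated apoE-deficient arrays were the lowest of the 6, against 16.2% of all 14033 probe sets, and this share counts several probe sets of 1 gene, which are not independent. 23 genes had at least 1 such probe set, in 12 genes every further probe set was such, and in 16 genes 0 were. None of the 83 met the 1.5-fold limit, since any that did would be a member.

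Tcf4 and Marcks were the genes with most support of this kind. All 4 further Tcf4 probe sets had both untreated apoE-deficient arrays lowest, for example 327 and 317, then 234 and 219, then 538 and 455, and so had 4 of the 5 of Marcks. Nbeal1 and Fgf12 came near the limit, with Nbeal1 at 422 and 383, then 261 and 216, then 407 and 425 and Fgf12 at 77.6 and 95.6, then 57.2 and 36.6, then 166 and 193. In contrast, Septin7 read 3146 and 3159, then 3085 and 3034, then 2882 and 2990 on its other probe set, and Mapre2 had a higher untreated apoE-deficient than B6 mean on all 3 others, for example 609 and 648 against 507 and 465. Of the 4 other Malat1 probe sets, 1 kept the order, at 616 and 573, then 391 and 400, then 487 and 411. For Septin7 and Mapre2 the pattern of the members was thus read by 1 probe set and not by the others.

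**Figure D5:**
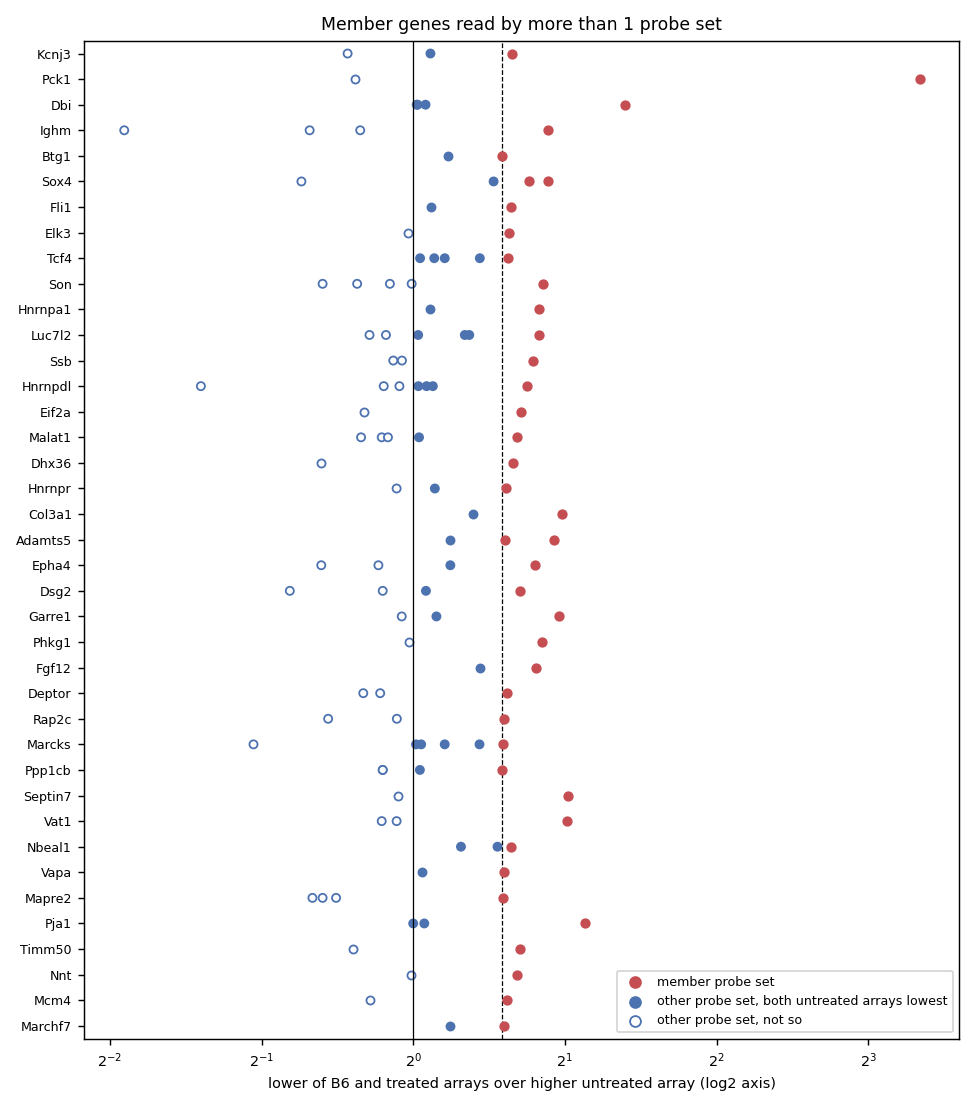
For the 39 member genes with further probe sets, each point is a probe set and the horizontal log2 axis gives the lower B6 or treated array over the higher untreated apoE-deficient array, with the 1.5-fold limit dashed. Red member points lie right of the limit by choice, and 37 of the 83 blue points are filled because both untreated apoE-deficient arrays were lowest.

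Probe sets whose suffix (x_at) says that some probes can match other transcripts made up 12 of the 67 members, 17.9%, against 7.1% of the 14033 probe sets. They read Dbi, Eif2a, Hnrnpr, Marcks, Mcm4, Nnt, Plagl1, Ppp1cb, Rap2c, Septin7, Vat1 and 1 of the 2 Wdr6 probe sets, and their signals can include those of related transcripts. None of the atrial genes was read by such a probe set.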

How the data were processed

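Each deposited value is the linear intensity of a probe set on 1 array. GCOS is named in the submitters' processing notes, while how signals were scaled, and by which version, is not given in the sources used here. The number of arrays (2 a group) limits precision.

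Signals of 45037 probe sets were quantile-normalized over all 6 arrays, 11.1 (the 25th percentile) was added and log2 taken. The 27022 probe sets with a mean above the 40th percentile were tested in R 4.3.3 with limma 3.58.1 (intensity trend in eBayes after lmFit, 1 fit of 3 groups, 3 residual and 5.97 prior degrees of freedom, Benjamini-Hochberg adjustment), tested on simulated data. The given annotation, which can be old, paired 34945 probe sets with 1 symbol, 932 with several and 9160 with none; 34741 were matched to RefSeq (GRCm38.p6) for current symbols. In lists, a gene stands for its probe set with the highest mean. The filter on dim probe sets used the mean of all 6 arrays. High treated signals could thus bring a list gene that is dim elsewhere into the test.

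The members and lists were chosen with earlier results of these data known, and roles, the melanocyte list and the Egr and Fos families after values were seen. Named members had the largest ratios, the highest signals or the largest differences, lay at the limit, were in a list or shared a role. Non-members named were up to 4 of a list with the smallest p in treated against B6 hearts or of a member's family; all others, including those behind counts of 5 or fewer, were picked once values were known. Other scalings, pseudocounts, filters, limits, fits and left-out arrays were tried, and leaving out members that passed the floor only through treated arrays was added after seeing the data. Samples with the same replicate number did not deviate together (r from -0.002 to 0.007).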

Additional observations from a re-analysis of the deposited data

Results flagged for a closer look

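5 probe sets outside the 67 also met the rule, but carry several gene symbols or none and were left out of the comparisons: 3 with several symbols and 2 with none. They stand here as signal outside the genes that were compared. Their ratios of the lower B6 or treated array to the higher untreated apoE-deficient array ran from 1.52 to 1.83. 1 of those without a symbol read 1329 and 1451 in B6, 725 and 719 in untreated apoE-deficient, and 1422 and 1390 in treated hearts. With groups of 2 arrays, no sample could be tested as standing apart from its group.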

How the results depend on the processing

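The number of members depends on scaling and limits. It was 95 with trimmed-mean scaling, 220 after centring array medians, 66 with spike-in scaling (47 shared with the 67), 981 with no scaling, 63 with quantile normalization of log2 values, 117 at 1.4-fold, 25 at 1.8-fold and 141 at a signal floor of 50, and from 69 to 223 with 1 array left out, moving most without untreated apoE-deficient replicate 1 (203) or 2 (223) or B6 replicate 2 (102). Of the 67, 43 were members under each of the 4 other scalings and 58 with any 1 array left out. Members higher in treated than in B6 hearts numbered 56 with spike-in scaling, 65 with no scaling and 18 without an intensity trend, each with 0 lower, and 23 to 33 with 1 array left out. Without the 9 members that reached the signal floor only through treated arrays, a setting added after seeing the data, 27 were higher and 1 lower. Probe sets called higher and lower were 3278 and 1005 after centring medians, 7038 and 573 after spike-in scaling, 18703 and 55 without scaling, and 440 and 186 without an intensity trend, and with 1 array left out from 1088 to 2066 and from 1027 to 2035. Of these calls 49.6% were higher with quantile normalization, 76.5% with medians centred and 92.5% with spike-in scaling. The same shares for the untreated comparison with B6 were 44.8%, 14.7% and 80.9%, and those for treated against untreated apoE-deficient 50.5%, 89.0% and 79.6%. The median treated minus B6 difference of members moved to 0.50 after centring, 0.65 after spike-in scaling and 1.202 without scaling, while that of all tested probe sets moved to 0.11, 0.28 and 0.81. Differences changed sign, with a call in at least 1 of the 2 settings, for Dsg2 (0.22) and Deptor (0.30) with spike-in scaling. With no scaling they did so for Malat1 (0.33), Epha4 (0.90), Dsg2 (0.80), Timm50 (0.61), Marchf7 (0.75), Garre1 (0.76), Deptor (0.86), Ppp1cb (0.84) and the dimmer Sox4 probe set (0.89). Without a call, the sign also changed with spike-in scaling for Epha4 (0.33), Ppp1cb (0.29), Garre1 (0.22), Marchf7 (0.20), Timm50 (0.08), Fign (0.02) and the dimmer Sox4 probe set (0.33). For Fign it changed with no scaling too (0.56). The cause was not tested. With the replicate block, 33 members were higher and 1 lower, so the block changed no call of a member, and the numbers do not pair the samples.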
